A study of Mus musculus with 46 samples.

Results

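The bed nucleus of the stria terminalis, or BNST, belongs to the extended amygdala and is studied for its part in stress and in the aversive state of withdrawal. Its RNA was compared between mice given chronic intermittent ethanol vapor (CIE) and mice given air (Ctrl), at the end of the last chamber session (0 h) and 8 h later. The measure described here is the change of the CIE effect between those times, that is (CIE minus Ctrl at 8 h) minus (CIE minus Ctrl at 0 h), taken on the log2 scale for every probeset of the array. It draws on 24 of the 46 arrays of the series, with 6 mice in each of the 4 groups and 1 mouse per array. All mice were adult males of the strain C57BL/6J (C57BL/6 in a further label), and all had gone through 4 cycles of 4 days with 16 h a day in a chamber, with 7 days without exposure between cycles. CIE mice breathed ethanol at 10 to 13 mg/l of air and were injected before each cycle with ethanol (1.6 g/kg) and pyrazole (1 mmol/kg), an inhibitor of alcohol dehydrogenase that keeps blood ethanol up. Ctrl mice received saline with the same dose of pyrazole, so that pyrazole is shared by every group. The times are counted from the end of the session, and clock times are not given in the sources used here. Ctrl mice were collected at the same 2 times, and whether CIE shifted daily rhythms was not tested.

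A CIE effect that is there at 0 h can fade, shrink, hold, grow or turn, and one that is missing at 0 h can appear by 8 h. Only the test of the change itself separates these, because an effect that passes a threshold at one time and misses it at the other may not have changed. Several systems with known kinetics meet in this window. Corticosterone, which is high in intoxicated and in withdrawing rodents, switches on genes such as Fkbp5 and Plin4 through the glucocorticoid receptor. Neuronal firing drives immediate early genes such as Fos, and the ERK kinase pathway turns on its own phosphatases such as Dusp4. Notch receptors act through Rbpj on Hes5 and Nrarp, and secretory load in the endoplasmic reticulum (ER) turns on chaperones through Atf6 and Xbp1.

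Values are RMA log2 intensities, in which 1 unit is a doubling. Array medians ran from 6.78 to 6.83, and the 24 arrays correlated with each other at 0.983 to 0.998. The standard error of a change had a median of 0.11 over all probesets, against 0.08 for a CIE effect at 0 h alone, so the median 95% interval of a change reached 0.22 to either side. Adjusted p-values come from limma and were corrected by the Benjamini-Hochberg method over all 45037 probesets, with 0.01 as the threshold. Genes are given by 1 representative probeset, the one of the highest mean. Gene lists were written with earlier results of these data known, so list counts set beside all genes describe the lists and are no test. Marker genes of striatal medium spiny neurons, a neighbouring tissue, and of microglia differed in level among mice, and their values stand beside the gene groups below.

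The change of the CIE effect was called for 36 of the 45037 probesets, or 0.0799%. The effect was higher at 8 h than at 0 h for 14 of them (0.0311%) and lower for 22 (0.0488%). At an adjusted p of 0.05 the count was 107, or 0.238%, and 63 representative genes (0.346%). Called changes had a median size of 0.57 and ran from 0.24 to 1.30, and 4 were larger than 1 log2 unit. They cover 27 genes by any probeset and 22 of the 18193 by the representative one (0.121%), and 4 further probesets carry no single gene symbol. Of the 22 genes, 13 had further probesets, and for 4 of these a further probeset was called too, with the same sign. By comparison the CIE effect itself was called for 1079 probesets at 0 h (2.4%) and for 251 at 8 h (0.557%). The count rested in part on single arrays. It was 22 without CIE 8 h mouse 69, 23 without CIE 0 h mouse 57 and 62 without Ctrl 0 h mouse 48, and 10 when the spread was estimated from these 24 arrays alone, while all 36 kept their sign in each of these fits.

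Sorted by what the effect did, 18 of the 36 probesets faded (called at 0 h, not at 8 h), 2 shrank (called at both, smaller at 8 h), 9 appeared (called at 8 h only), 2 grew, 1 turned and 4 were called at neither time on their own. The 0 h effect enters both the class and the change, so the classes are descriptions. They tell at which times an effect passed the threshold. The mean effects at 0 h and 8 h had opposite signs for 29 of the 36, most of them not called at both times. In representative genes, 11 faded, 1 shrank, 6 appeared and 1 grew. Fading ran from both sides: 8 of the 11 genes had been above Ctrl at 0 h and 3 below. Appearing effects were upward in 5 of these 6 genes, the exception being Nrarp.

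**Figure D1:**
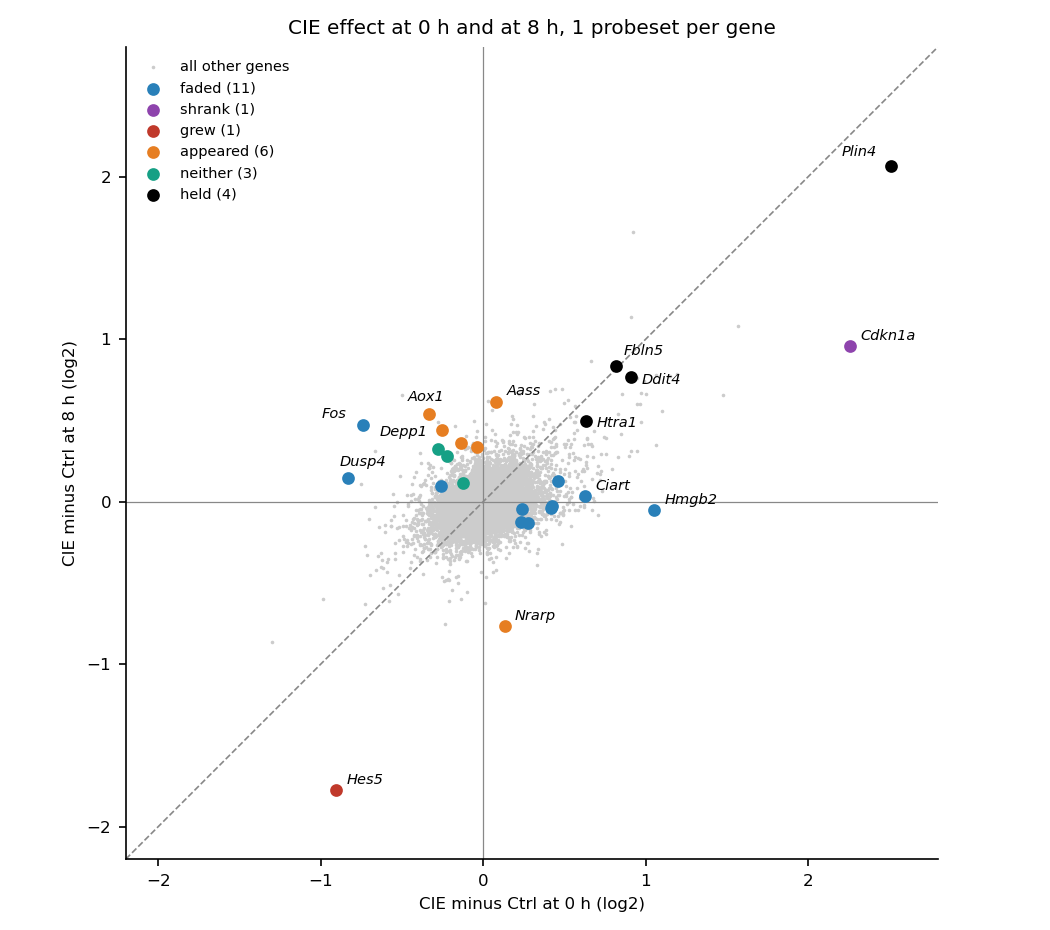
Each point is a gene, with its CIE effect at 0 h on the x axis and at 8 h on the y axis, both as log2 differences of group means. The dashed line marks equal effects, and coloured points are the 22 genes whose change was called and the 4 genes classed as held. Most faded genes lie near the horizontal axis, and Hes5 and Nrarp stand far below the dashed line.

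Hmgb2, a chromatin protein that bends DNA and is abundant in dividing cells, had the smallest p-value of the change. Ctrl mice at 0 h lay between 7.20 and 7.57 (median 7.40) and CIE mice between 8.19 and 8.70 (median 8.44). At 8 h Ctrl mice lay between 7.25 and 7.78 (median 7.44) and CIE mice between 7.22 and 7.61 (median 7.39). Every CIE mouse was above every Ctrl mouse at 0 h and at 8 h the groups overlapped, with 1 CIE mouse under all Ctrl mice. The effect thus went from 1.05, a 2.08-fold difference, to -0.05, a change of -1.11 ± 0.11 (SE, n = 6 mice per group, limma adjusted p = 2.89e-08). A second Hmgb2 probeset fell alongside by -1.27 and was called too. The other 18 measured genes of DNA replication and cell division, among them Mki67 (change -0.05) and Top2a (0.00), had no called change, and the list of 19 had a median change of -0.03 beside -0.01 over all 18193 genes.

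Cdkn1a, which encodes the cell cycle inhibitor p21 and is a target of both p53 and the glucocorticoid receptor, shrank but did not disappear. Ctrl mice ranged from 7.75 to 8.19 (median 7.92) at 0 h and from 7.75 to 8.23 (median 7.88) at 8 h. CIE mice ranged from 9.92 to 10.60 (median 10.08) at 0 h and from 8.31 to 9.72 (median 8.84) at 8 h. No CIE mouse overlapped a Ctrl mouse at either time, and no CIE mouse of 8 h reached the lowest one of 0 h. A difference of 4.78-fold became one of 1.95-fold, which is 42.5% of the effect in log2 units. This change of -1.30 ± 0.19 (SE, adjusted p = 0.000124) had the largest size of all called changes, and the second Cdkn1a probeset fell too (adjusted p = 0.00689).

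Fos and Dusp4 faded from below. Fos, the immediate early gene most used as a marker of neuronal activity, lay between 9.03 and 9.50 (median 9.15) in Ctrl mice and between 7.99 and 8.71 (median 8.47) in CIE mice at 0 h. At 8 h Ctrl mice lay between 8.63 and 9.06 (median 8.73) and CIE mice between 8.86 and 9.64 (median 9.25). All CIE mice were under all Ctrl mice at 0 h, and at 8 h 4 of 6 were over all Ctrl mice. The Fos effect moved from -0.74 to 0.48, where the 8 h value alone did not pass (adjusted p = 0.0896), and the change of 1.21 ± 0.20 did (SE, adjusted p = 0.000996).

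Dusp4, a nuclear phosphatase that switches ERK off, showed the same course with a wider spread at 8 h. Its Ctrl mice ranged from 7.59 to 8.01 (median 7.84) at 0 h and from 7.51 to 7.95 (median 7.83) at 8 h. CIE mice ranged from 6.77 to 7.30 (median 6.98) and then from 7.46 to 8.33 (median 7.91). The CIE mice lay wholly under Ctrl at 0 h and on both sides of the Ctrl range at 8 h, with the effect passing from -0.83 to 0.14 and a change of 0.98 ± 0.15 (SE, adjusted p = 0.00019).

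**Figure D2:**
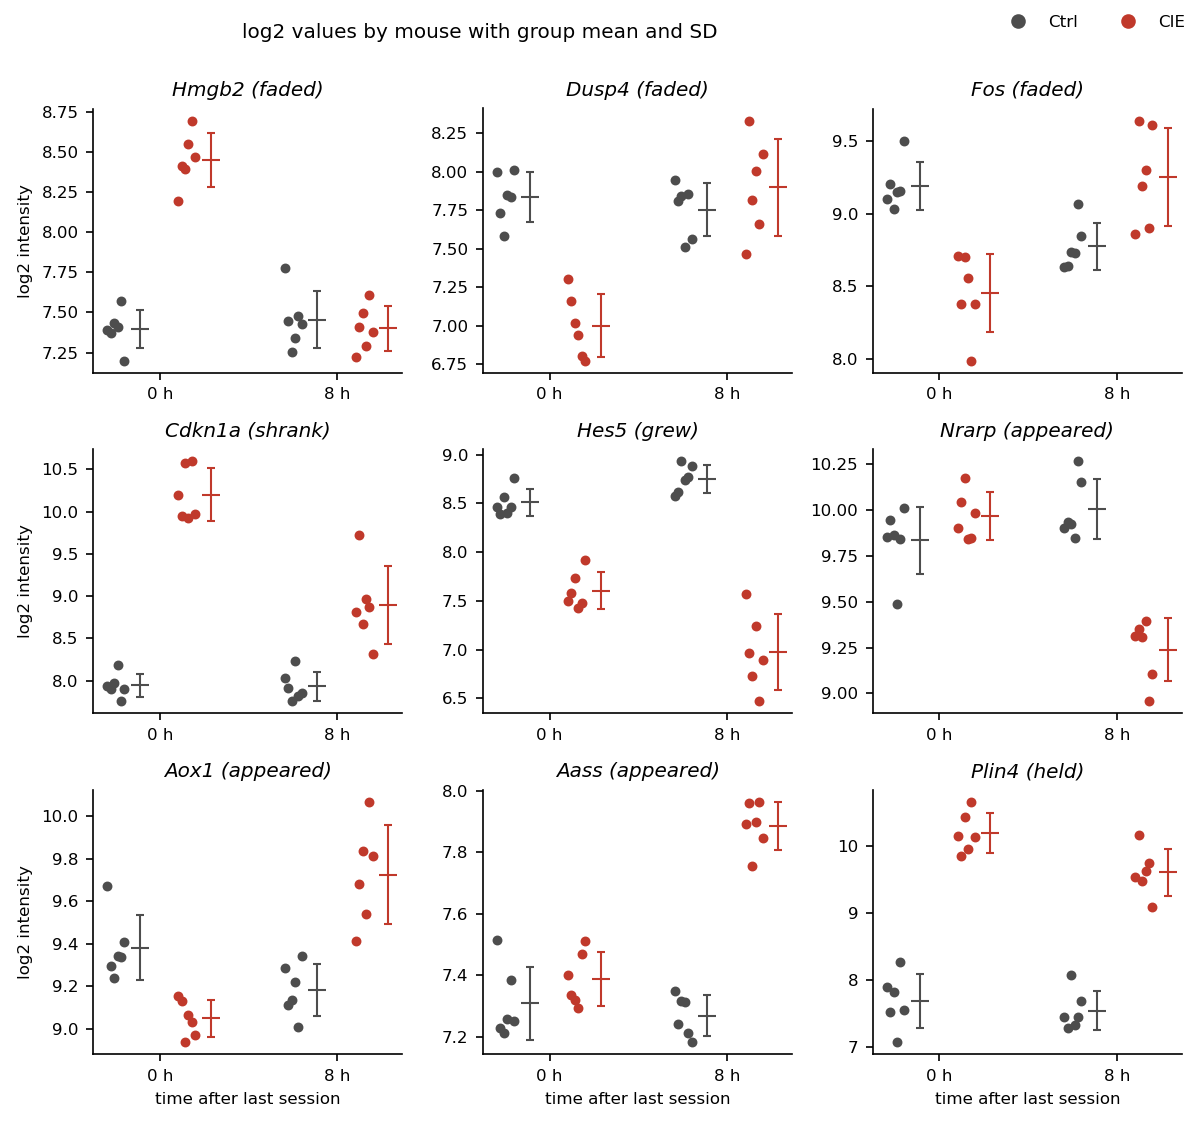
Log2 intensity of 9 genes in each mouse, Ctrl in grey and CIE in red, at 0 h and 8 h after the last session. Points are mice, spread sideways for sight only, and bars are the group mean with its SD (n = 6). Hmgb2 returns to the Ctrl range, Fos and Dusp4 rise from below it, Hes5 and Nrarp fall away from it, and Plin4 stays far above it.

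The remaining faded genes moved by less. Tef and Ciart, both of the circadian output, were above Ctrl by 0.42 and 0.63 at 0 h and by -0.03 and 0.03 at 8 h, with changes of -0.45 ± 0.08 (adjusted p = 0.00182) and -0.59 ± 0.11 (adjusted p = 0.00448). Pik3ip1, an inhibitor of PI3-kinase, went from 0.46 to 0.13, a change of -0.34 (adjusted p = 0.00784). Aloxe3, a lipoxygenase of the epidermis type, went from 0.42 to -0.04 (change -0.46, adjusted p = 0.00166). Rbm33, an RNA-binding protein, passed from 0.28 to -0.13 (change -0.41, adjusted p = 8.54e-05), and of its other probesets 1 had the same sign and 1 the opposite sign, neither called. Coq10b, a mitochondrial protein that binds coenzyme Q, faded from below, -0.26 to 0.10 (change 0.36, adjusted p = 0.00369). Xpo1, the main nuclear export receptor, went from 0.23 to -0.12 (change -0.35), the 8 h effect not being called (adjusted p = 0.12). All 6 of its CIE mice were above all Ctrl mice at 0 h and below all of them at 8 h. Patz1, a zinc finger protein, went from 0.24 to -0.04 (change -0.28). Xpo1 and Patz1 are named because they complete the set, with their values already seen. Further probesets of Tef (-0.22 and -0.09), Pik3ip1 (-0.25), Coq10b (0.30), Xpo1 (-0.27 and -0.19) and Patz1 (-0.13) kept the sign, none called.

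Hes5 was the only gene whose effect grew. It encodes a transcriptional repressor that is a direct target of Notch and is found mostly in astrocytes and progenitor cells. Ctrl mice ranged from 8.39 to 8.76 (median 8.47) and CIE mice from 7.42 to 7.92 (median 7.54) at 0 h. At 8 h Ctrl mice ranged from 8.57 to 8.93 (median 8.76) and CIE mice from 6.47 to 7.57 (median 6.93). Every CIE mouse was under every Ctrl mouse at both times, and 5 of the 6 CIE mice of 8 h were also under all CIE mice of 0 h. The deficit went from 1.87-fold to 3.42-fold, a change of -0.87 ± 0.16 on the log2 scale (SE, adjusted p = 0.00342), and the second Hes5 probeset changed by -0.94 (adjusted p = 0.000426).

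Nrarp, a small ankyrin protein that Notch induces and that dampens Notch in turn, had no called effect at 0 h and a strong one at 8 h. Ctrl and CIE mice overlapped at 0 h, at 9.49 to 10.01 (median 9.86) and 9.85 to 10.18 (median 9.94). Ctrl mice at 8 h lay between 9.85 and 10.27 (median 9.93) and CIE mice between 8.96 and 9.39 (median 9.31). All 6 CIE mice of 8 h were below every mouse of the other 3 groups. The change was -0.90 ± 0.12 (SE, adjusted p = 2.77e-05), from 0.13 to -0.77. A second, dimmer Nrarp probeset had -0.50 and was not called (adjusted p = 0.31). Ctrl 0 h mouse 48 sat apart at 9.49, and the change was called in every fit that left out 1 array.

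Among genes whose effect appeared upward, Aox1 had the largest change. It encodes aldehyde oxidase, an enzyme that oxidises aldehydes and nitrogen heterocycles. Ctrl mice ranged from 9.24 to 9.67 (median 9.34) at 0 h and from 9.01 to 9.34 (median 9.18) at 8 h, and CIE mice from 8.94 to 9.16 (median 9.05) and then from 9.42 to 10.07 (median 9.75). Every CIE mouse was below every Ctrl mouse at 0 h and above every one at 8 h. The 0 h effect of -0.33 missed the threshold (adjusted p = 0.0153), the 8 h effect of 0.54 passed (adjusted p = 0.000157), and the change was 0.87 ± 0.12 (SE, adjusted p = 8.54e-05). In the list of 13 drug-metabolising enzymes Aox1 was the only member with a called change, beside 0.121% of all genes. The neighbouring family member Aox4 had a change of 0.16 (adjusted p = 0.793).

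Aass, the enzyme that begins lysine breakdown, overlapped between groups at 0 h and was separate at 8 h. Its Ctrl mice ranged from 7.21 to 7.51 (median 7.26) and its CIE mice from 7.29 to 7.51 (median 7.37) at 0 h. At 8 h Ctrl mice lay between 7.18 and 7.35 (median 7.28) and CIE mice between 7.75 and 7.96 (median 7.90). A difference of 1.06-fold became one of 1.53-fold, with a change of 0.54 ± 0.09 (SE, adjusted p = 0.00182). Depp1, a FOXO target linked to autophagy, went from -0.25 to 0.44 (change 0.70 ± 0.12, adjusted p = 0.00295), and its second probeset gave 0.75 (adjusted p = 0.0197).

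One probeset turned, being called at both times with opposite sign. It is 1459177_at, which has no gene symbol in the annotation used, and its effect went from -0.39 to 0.60 (change 0.99, adjusted p = 1.43e-05). The remaining genes called by their representative probeset were Abce1, a ribosome recycling factor with a change of 0.24 (adjusted p = 0.00911), and 4 genes of the ER that are given with their group below. The other 5 called genes were called by another probeset only, all downward, and are named after their values were seen. Czib, a zinc-binding protein, had called changes of -0.47 and -0.59, with effects that appeared below Ctrl at 8 h, but its representative probeset had 0.25 (adjusted p = 0.0576). Slc16a9, a solute carrier of the monocarboxylate family, had -0.76 in a dim probeset (mean 5.31). Guf1, a mitochondrial translation factor, had -0.58, and Rprd1a and Trappc13 had -0.57 each. The representative probeset of Guf1 had -0.32 (adjusted p = 0.0343). Those of Slc16a9, Rprd1a and Trappc13 did not pass an adjusted p of 0.05.

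Held effects were few, since the class asked for a call at both times and for a 95% interval of the change within 0.5 times the 0 h effect. It took 9 probesets and 4 genes. Plin4, a lipid droplet coat protein that glucocorticoids induce, had the largest effect of these: Ctrl mice ranged from 7.07 to 8.26 (median 7.69) and CIE mice from 9.86 to 10.66 (median 10.14) at 0 h, and from 7.28 to 8.07 (median 7.45) and 9.09 to 10.16 (median 9.58) at 8 h. Its groups were far apart at both times, 5.71-fold and 4.19-fold, and its change of -0.45 had an interval of -0.94 to 0.05. Htra1, a secreted serine protease, kept 0.63 and 0.50 (interval of the change -0.30 to 0.03). Ddit4, an inhibitor of mTORC1 that stress and glucocorticoids induce, had 0.91 and 0.77 (interval -0.45 to 0.15). Its level went down between times in CIE mice (-0.59, adjusted p = 0.00022), and the fall in Ctrl mice was not called (-0.44, adjusted p = 0.0137). Both Ctrl groups held a Ddit4 value far from the others, 9.37 in mouse 48 at 0 h and 9.83 in mouse 50 at 8 h. Fbln5, an elastic fibre protein, had 0.82 and 0.84 (interval -0.34 to 0.39), and a second, dimmer Fbln5 probeset had a change of the other sign.

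**Figure D3:**
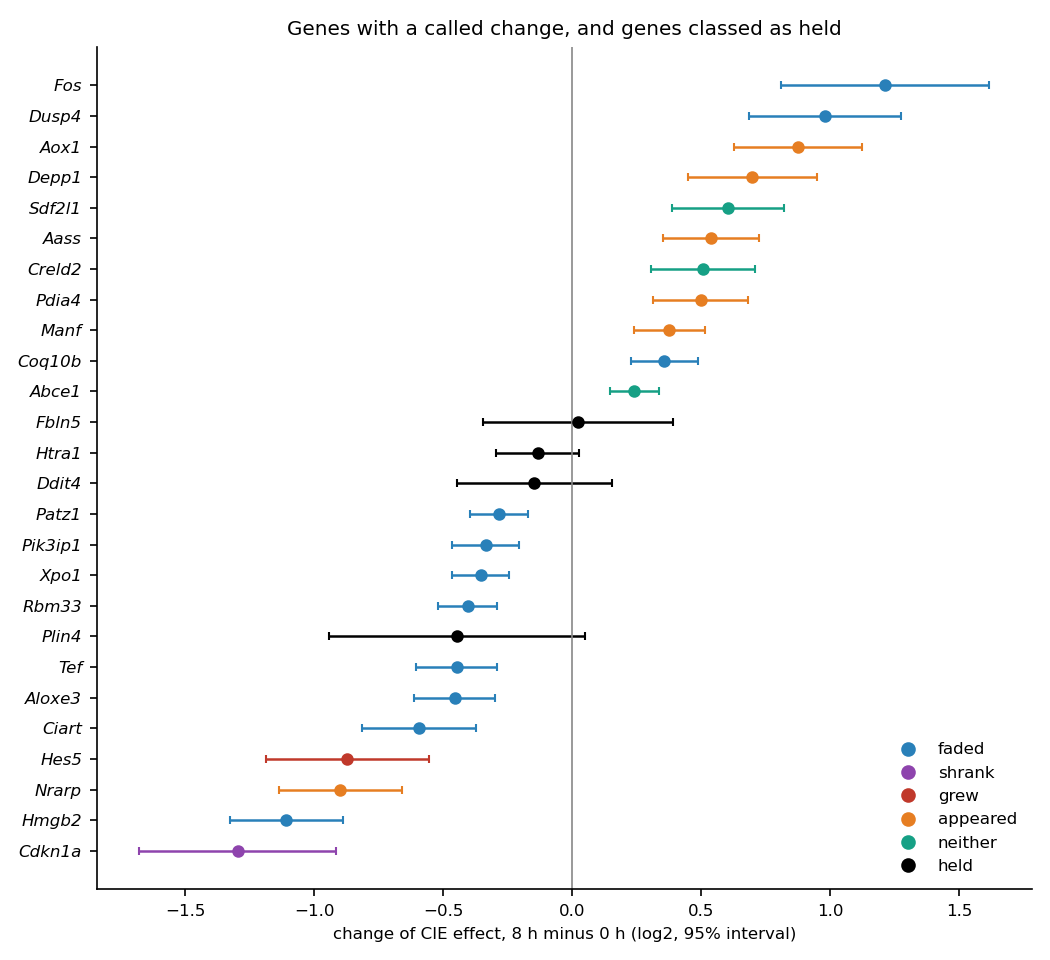
Change of the CIE effect from 0 h to 8 h in log2 units on the x axis, with its 95% interval, for the 22 genes whose change was called and the 4 held genes. Colours give the class. Fos, at 1.21, and Cdkn1a, at -1.30, are the outermost, and the intervals of the 4 held genes include 0.

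Most effects could be placed in neither group. Of the 1214 probesets called at 0 h or 8 h, 1173 were neither changed nor held. Among the 1079 called at 0 h, the 95% interval of the change included complete fading but not an unchanged effect for 540, an unchanged effect but not complete fading for 279, both for 195 and neither for 65. These intervals are not adjusted for the number of probesets. The probesets were picked by their 0 h effect, which enters the change with a minus sign, and this alone moves intervals toward fading. The counts therefore do not test how many effects faded. Of the 963 called at 0 h and not at 8 h, 18 had a called change. Of the 135 called at 8 h and not at 0 h, 9 did. Of the 116 called at both times, 115 had the same sign.

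A change of the effect can come from either treatment. The difference between 8 h and 0 h was called in CIE mice for 31 of the 36 probesets and in Ctrl mice for 4, beside 3.24% and 0.713% of all probesets; since the change is the difference of these 2 values, the counts describe it and do not test it. CIE mice moved further than Ctrl mice for 31. Hmgb2 went by -1.05 in CIE mice and by 0.06 in Ctrl mice, and Cdkn1a by -1.31 and -0.01. Manf was the opposite case, with -0.26 in Ctrl mice (adjusted p = 0.00246) and 0.11 in CIE mice (adjusted p = 0.157). Xpo1 and Aloxe3 also moved in Ctrl mice, by 0.21 (adjusted p = 0.00246) and 0.26 (adjusted p = 0.00598). For Fos the parts were -0.42 in Ctrl mice, not called (adjusted p = 0.0849), and 0.80 in CIE mice (adjusted p = 0.000202).

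**Figure D4:**
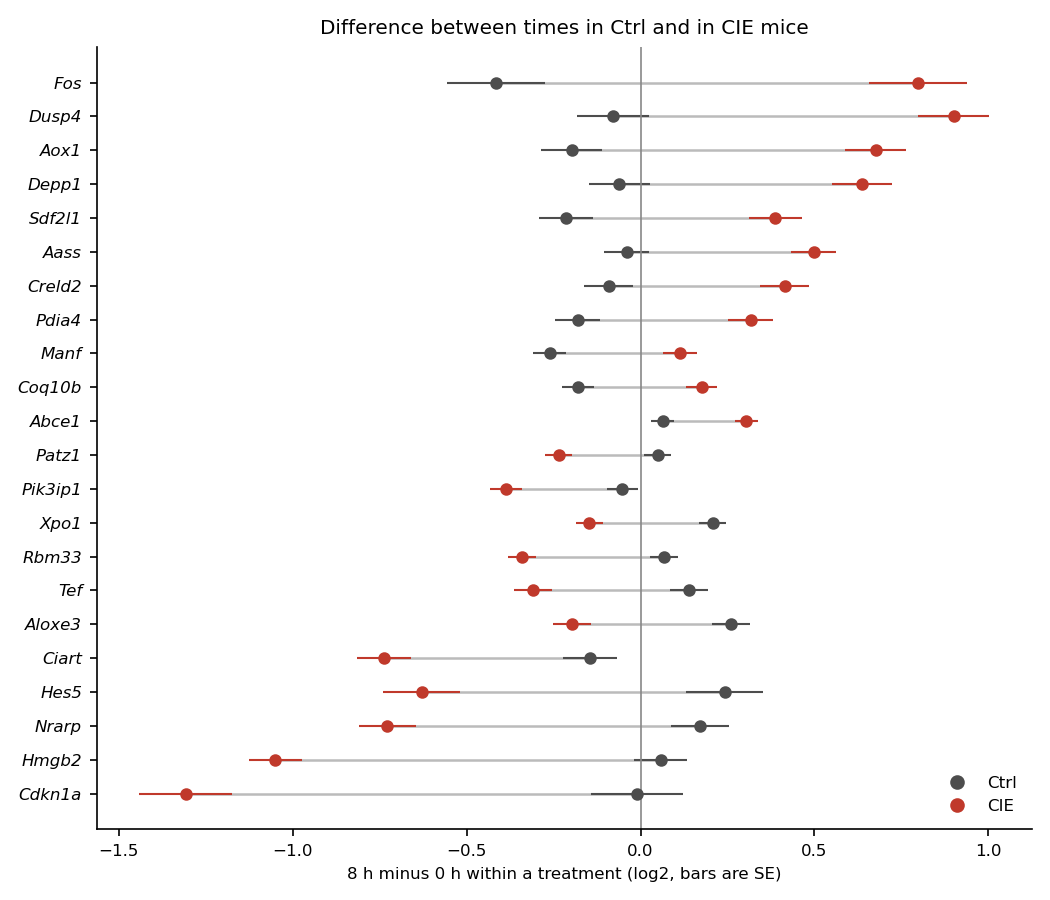
Difference between 8 h and 0 h within Ctrl mice (grey) and within CIE mice (red) on the x axis, in log2 units with its SE, for the 22 genes whose change was called. The distance between the points of a gene is its change of the CIE effect. For most genes the red point lies further from 0 than the grey one. Manf, Xpo1 and Aloxe3 are the reverse, and for Coq10b both lie 0.18 from 0, on opposite sides.

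Of 24 measured ER folding and stress genes 4 had a called change, all upward, beside 0.121% of all genes called in either direction. These are Sdf2l1 and Pdia4, a chaperone partner and a disulfide isomerase of the ER lumen, and Manf and Creld2, small secreted or resident proteins that ER stress induces. Sdf2l1 lay between 8.74 and 9.17 (median 8.92) in Ctrl mice and between 8.53 and 8.93 (median 8.60) in CIE mice at 0 h, then between 8.54 and 8.87 (median 8.74) and between 8.77 and 9.45 (median 8.998). The CIE mice were mostly the lower ones at 0 h and the higher ones at 8 h, with overlap at each time. Its effect went from -0.28 to 0.32 (change 0.60 ± 0.11, adjusted p = 0.00342), neither value passing alone. Creld2 followed with -0.22 and 0.28 (change 0.51 ± 0.10, adjusted p = 0.00994), Pdia4 with -0.14 and 0.36 (0.50 ± 0.09, adjusted p = 0.00448) and Manf with -0.04 and 0.34 (0.38 ± 0.07, adjusted p = 0.00387).

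Over the list of 24 measured ER genes the median change was 0.15, beside -0.01 over all genes, and 19 members had a change above 0, beside 47.3% of all genes. At an adjusted p of 0.05 Dnajb11, a co-chaperone of Hspa5, joined with 0.22 (adjusted p = 0.0433). Hspa5 itself, the main ER chaperone, had 0.20 (adjusted p = 0.49), and the stress transcripts Ddit3 and Atf4 had 0.19 and 0.18, none of them called. Further Hspa5 probesets had changes of 0.29 (adjusted p = 0.283) and -0.06, neither called. Xbp1, Atf6, Herpud1, Syvn1 and Trib3 had changes between -0.13 and -0.04. The mean level of the list was 10.20 in Ctrl and 10.17 in CIE mice at 0 h, and 10.14 and 10.27 at 8 h. When each of the 24 arrays was omitted in turn, the change stayed called 22 times for Sdf2l1, 18 times for Manf, 14 times for Pdia4 and 7 times for Creld2. Under 8 other settings of the fit, Sdf2l1, Manf and Pdia4 were called in 7 each and Creld2 in 6. None of the ER genes was called in all 8, and the largest adjusted p was 0.164, 0.106, 0.14 and 0.175 in that order. CIE 8 h mouse 21 sat apart for Pdia4 at 9.20 against 9.61 to 9.70 in the other 5, and a second, dim Pdia4 probeset had a change of -0.08.

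**Figure D5:**
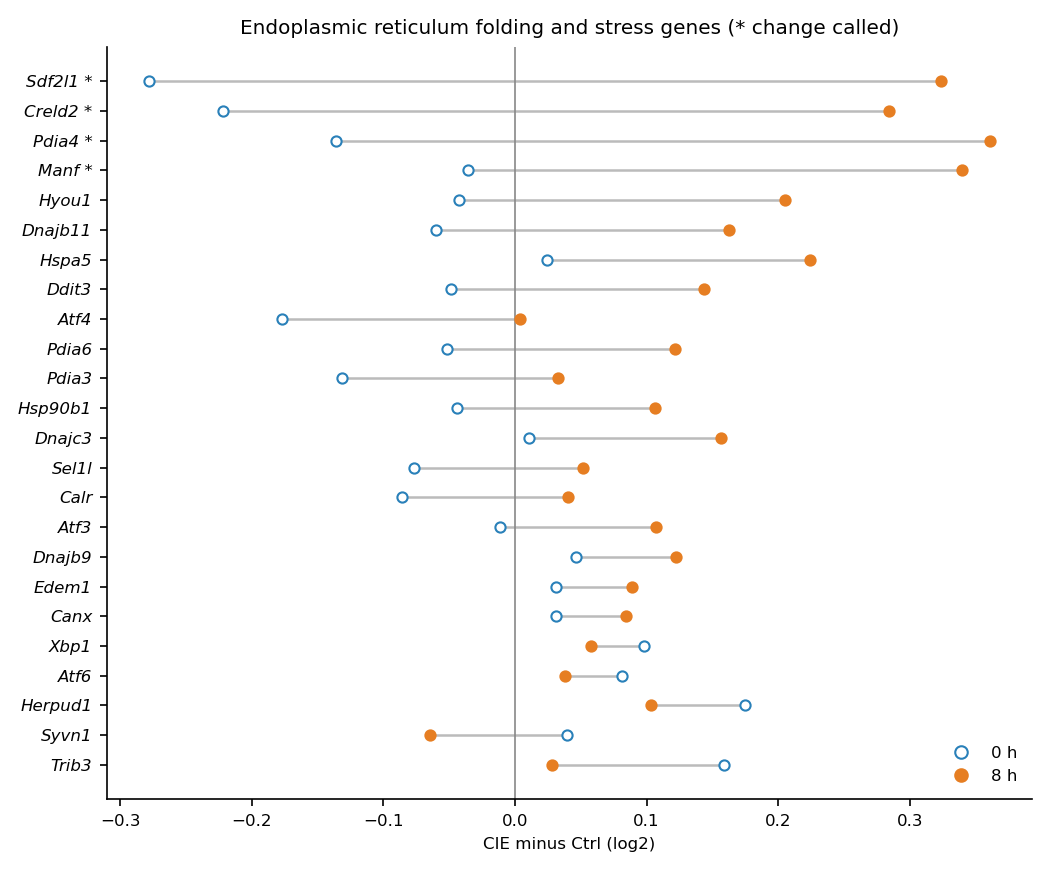
CIE effect at 0 h (open points) and at 8 h (filled points) on the x axis, in log2 units, for the 24 measured ER folding and stress genes ordered by their change. An asterisk marks the 4 genes whose change was called. In 19 of 24 genes the filled point lies to the right of the open one.

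Promoters of ER chaperone genes are known for the ER stress element, which Atf6 and Xbp1 read together with the factor NF-Y. The 150 bases before the start in the RefSeq promoter table (GRCm38.p6) were searched on both strands for CCAAT, then 9 bases of any kind, then CCACG. The element was found for 7 of the 21 list genes with an entry, Canx, Creld2, Dnajc3, Hsp90b1, Hspa5, Pdia6 and Syvn1, and for 0.0962% of all 27025 genes of the table. The list was put together from genes of this response, so the share describes the list. Of the called genes Creld2 has it, Pdia4 and Sdf2l1 have no match to these letters in this window, and the promoter of Manf was not analysed here. These windows are printed to show the element in a gene whose change was called and in the main chaperone, whose change was not. Capitals mark the element, which in Creld2 (chr15:88819496-88819645, plus strand) reads on the opposite strand and in Hspa5 (chr2:34771940-34772089, plus strand) on the gene's own strand.
Creld2: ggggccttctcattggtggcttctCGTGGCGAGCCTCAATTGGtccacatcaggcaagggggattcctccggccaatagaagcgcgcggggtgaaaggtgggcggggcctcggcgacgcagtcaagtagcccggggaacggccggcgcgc
Hspa5: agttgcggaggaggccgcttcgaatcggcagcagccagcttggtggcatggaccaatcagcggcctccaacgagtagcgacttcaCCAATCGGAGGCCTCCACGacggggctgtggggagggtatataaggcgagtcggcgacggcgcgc

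Of 12 measured ERK feedback genes 4 were called below Ctrl at 0 h, beside 1.54% of all genes, and none at 8 h. The median effect of the members was -0.26 and then 0.04, with a median change of 0.22. Dusp4 was the 1 member of 12 with a called change, beside 0.121% of all genes. Dusp6, the cytoplasmic ERK phosphatase, passed 0.05 alone (from -0.34 to 0.16, change 0.50, adjusted p = 0.0193), and Spred3, an inhibitor of Ras signalling, had 0.44 (adjusted p = 0.0576). Spry2 and Spry4 had 0.34 and 0.42 and were not called. The list level was 8.37 in Ctrl and 8.13 in CIE mice at 0 h, where the lowest Ctrl mouse (8.22) was above the highest CIE mouse (8.18), and 8.43 and 8.46 at 8 h.

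Immediate early genes other than Fos had no called change, which makes 1 of 22 members called, beside 0.121% of all genes. The 22 members had a median change of 0.05, with Npas4 at 0.46, Fosl2 at 0.55, Nr4a1 at 0.33, Arc at 0.31 and Egr1 at 0.30, and on the other side Klf4 at -0.47 and Fosb at -0.36. The list level overlapped between treatments at both times. With the striatal marker level as a covariate the median of the list became 0.19.

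Glucocorticoid-induced genes had the highest median CIE effect at 0 h of the 42 gene lists. Of 29 measured members, 18 were called upward at 0 h and 14 at 8 h, beside 1.55% and 0.445% of all genes, and the median effect was 0.51 and 0.36. Cdkn1a was the only one of the 29 with a called change, beside 0.121% of all genes. Fkbp5, the cochaperone that feeds back on the receptor, passed 0.05 alone, from 0.97 to 0.49 (change -0.48, adjusted p = 0.045). Sgk3 and Angptl4 had changes of -0.72 and -0.55 with adjusted p-values of 0.107 and 0.112. Tsc22d3, Sgk1, Cebpd and Sult1a1, also induced by the receptor, had 0.11, 0.20, 0.02 and 0.23, none called. The median change of the list was -0.12, and its level was 9.57 in Ctrl and 10.22 in CIE mice at 0 h and 9.44 and 9.92 at 8 h, with no overlap of the treatments at either time.

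Energy-sensing genes of the alpha-arrestin, FOXO and KLF families, which fasting and low insulin switch on, had a median change of -0.15 over 18 members. Of these, 15 lay below 0 and 3 above, beside 47.3% of all genes above 0. Pik3ip1 was the 1 member of 18 with a called change, beside 0.121% of all genes. Sesn1, a sestrin that restrains mTORC1, passed 0.05 alone (from 0.29 to 0.00, change -0.29, adjusted p = 0.0139). Txnip and Arrdc2 had -0.29 and -0.49 and stayed called above Ctrl at 8 h by 0.54 and 1.08. Of the 18 members, 9 were called upward at 0 h and 4 at 8 h, beside 1.55% and 0.445% of all genes.

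Clock genes gave 2 called changes of 20, Tef and Ciart, beside 0.121% of all genes. Dbp and Nr1d2, which Clock and Arntl activate through E-boxes, had -0.40 (adjusted p = 0.185) and -0.18 (adjusted p = 0.1), while Cry1 had 0.26 and the core factors Clock and Arntl 0.00 and 0.04. The list had a median change of -0.12, which turned to 0.04 with the striatal marker level as a covariate. The E-box CACGTG stood in the 150 bases before the start of 3 of the 18 clock genes with an entry, Ciart, Cry1 and Tef, and of 4.92% of all genes in the table. Ciart held 3 of them, 116, 58 and 44 bases before the start, and its window (chr3:95882229-95882378, minus strand) is printed with these in capitals.
Ciart: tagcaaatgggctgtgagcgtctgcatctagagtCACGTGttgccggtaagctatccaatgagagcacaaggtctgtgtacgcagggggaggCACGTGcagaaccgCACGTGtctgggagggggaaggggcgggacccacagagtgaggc

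Notch genes were split. Of the 18 members 2, Hes5 and Nrarp, were called downward, beside 0.121% of all genes called in either direction. The median change of the members was -0.03 and 9 lay above 0, beside 47.3% of all genes. Jag1, a ligand, had a change of 0.42 (adjusted p = 0.222), Heyl, a target in mural cells, -0.40 (adjusted p = 0.55), and Hes1 and Hey1, targets in many cell types, 0.17 and -0.07. Notch1, the receptor, had effects of -0.34 (called) and -0.25 (not called, adjusted p = 0.0125) with a change of 0.09. Marker genes of astrocytes, where Hes5 is mostly found, had a median change of 0.09 over 16 genes and none called. The core TGGGAA, which Rbpj binds, is common, being in the window of 14.9% of all genes, and was found for 3 of the 15 Notch genes with an entry, Hes5, Lfng and Rbpj. That of Hes5 begins 82 bases before the start (chr4:154960773-154960922, plus strand) and is in capitals, and Nrarp had no match to these letters in its window. No match of 1 motif overlapped a match of another in the printed windows.
Hes5: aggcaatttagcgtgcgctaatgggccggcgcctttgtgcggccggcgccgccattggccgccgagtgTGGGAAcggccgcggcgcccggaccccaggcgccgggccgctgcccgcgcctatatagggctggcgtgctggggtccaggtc

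BNST neuropeptides and their receptors had no change called at 0.01. Their median change was -0.20 over 28 genes, and 20 lay below 0 and 8 above, beside 47.3% of all genes above 0. Adcyap1r1, the receptor of PACAP, a peptide of the BNST stress response, passed 0.05 alone (0.10 to -0.20, change -0.31, adjusted p = 0.0236). Crh, the corticotropin releasing hormone, had 0.71 (not called, adjusted p = 0.0237) and -0.08, a change of -0.79 ± 0.28 (adjusted p = 0.354). Its level went by 0.74 between times in Ctrl mice and by -0.06 in CIE mice, neither called, and Ctrl mice of 0 h ranged from 9.29 to 10.56. Pdyn, the precursor of dynorphins, had a change of -0.38 (adjusted p = 0.893), and its receptor Oprk1 one of -0.36 (adjusted p = 0.232). Markers of BNST GABA neurons, some of them the same genes, had a median change of -0.18 over 15 genes, none called. Fewer cells of a type and less RNA per cell cannot be told apart in such dissections.

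Striatal and microglial markers lay mostly to one side in the same contrast, in which 47.3% of all genes had a change above 0. All 14 striatal medium spiny neuron markers had a change below 0 (median -0.36, none called, from 0.35 to -0.03), their mean level per mouse ranging from 9.44 to 10.13 in Ctrl and 9.76 to 10.71 in CIE mice at 0 h and from 9.33 to 10.40 and 9.52 to 10.49 at 8 h. The treatments overlapped widely, and none of these markers had a CIE effect called at either time. With that level as a covariate 41 probesets were called, 32 of them shared with the 36, and the median change of the neuropeptide list was -0.09. Of 17 microglial markers 16 had a change above 0 (median 0.31, none called), from a median effect of -0.25 at 0 h to -0.02 at 8 h. Fcrls, a receptor specific to microglia, went from -1.30 to -0.86 (change 0.43, adjusted p = 0.102), and Tmem119 and P2ry12 had 0.28 and 0.27. The mean microglial level was 9.22 in Ctrl and 8.88 in CIE mice at 0 h and 9.06 and 9.01 at 8 h. Thalamic and glutamatergic neuron markers had a median change of 0.28, from a median effect of -0.18 to 0.08. Of these markers 8 of 10 lay above 0 and none was called. Cholinergic neuron markers had a median change of 0.15, with 5 of 8 above 0 and none called. No microglial covariate was fitted. The part of these cell types in the changes described above was not tested beyond the striatal covariate.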

How the data were processed

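BNST RNA from 46 mice was hybridized to Affymetrix mouse arrays, 1 mouse per array. The deposited values are log2 intensities: per the study's methods, the authors background-corrected (RMA) and quantile-normalized each hybridization batch, normalized all arrays together and removed batch with ComBat. Which array belonged to which batch is not given in the sources used here, and no batch term was fitted. limma 3.58.1 (R 4.3.3) was fitted to the 8 groups of all 46 arrays (CIE at 7 d held 4 mice, the others 6), with Benjamini-Hochberg adjustment over 45037 probesets. Symbols came from the platform annotation: 34945 probesets had 1 symbol, 932 several and 9160 none. Members and gene lists were chosen with earlier results of these data known. Lists were described by counts and medians, without set tests. Named were the 8 largest changes of a class, the 10 largest held effects, up to 4 called members (otherwise the smallest p) of a list and a fixed set of 40 genes. The number of arrays limits the precision. Scripts were tested on simulated data. Promoter windows are from RefSeq.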

Additional observations from a re-analysis of the deposited data

Results flagged for a closer look

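The CIE effect differed between 0 h and 8 h by the test of the change for 22 genes. Their changes in log2 units were, upward, 1.21 for Fos, 0.98 for Dusp4, 0.87 for Aox1, 0.70 for Depp1, 0.60 for Sdf2l1, 0.54 for Aass, 0.51 for Creld2, 0.50 for Pdia4, 0.38 for Manf, 0.36 for Coq10b and 0.24 for Abce1. Downward they were -1.30 for Cdkn1a, -1.11 for Hmgb2, -0.90 for Nrarp, -0.87 for Hes5, -0.59 for Ciart, -0.46 for Aloxe3, -0.45 for Tef, -0.41 for Rbm33, -0.35 for Xpo1, -0.34 for Pik3ip1 and -0.28 for Patz1.

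Among 120 groups of 6 mice that were looked at, 6 held a mouse far from the other 5 by Dixon's criterion, where chance gives about 1 in 20 groups. Ctrl 0 h mouse 48 was low for Nrarp (9.49 against 9.84 to 10.01) and for Ddit4 (9.37 against 9.98 to 10.10). Ctrl 0 h mouse 56 was high for Abce1 (10.24 against 10.04 to 10.11). CIE 0 h mouse 67 was high for Manf (11.03 against 10.90 to 10.95), Ctrl 8 h mouse 50 for Ddit4 (9.83 against 9.26 to 9.47), and CIE 8 h mouse 21 was low for Pdia4 (9.20 against 9.61 to 9.70). When arrays were weighted by their fit to the model, Ctrl 0 h mice 48 and 56 and CIE 8 h mouse 21 received the lowest weights of the 24, at 0.243, 0.345 and 0.33.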

How the results depend on the processing

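All 36 called changes kept their sign in every setting, while their number moved. With the 24 arrays alone 10 were called, 5 higher and 5 lower, of which 4 faded, 0 shrank, 0 grew, 4 appeared and 1 was called at neither time. Array weights gave 64, with 43 lower, 36 faded and 17 appeared. Taking 2 residual components as covariates gave 122, with 55 higher, 67 lower, 83 faded, 4 shrank, 22 appeared, 5 turned and 20 held. At an adjusted p of 0.05 there were 107, with 41 higher, 66 lower, 73 faded, 22 appeared, 5 turned and 2 at neither time. That setting is the main fit at a looser threshold, so all 36 pass it and keep their sign by construction. Aligned medians gave 35 (11 higher, 24 lower; 2 turned, 1 at neither time), a mean of 5 or more gave 42 (3 turned) and a trended, robust prior 40 (2 turned). The striatal covariate, chosen after seeing the data, gave 41 (0 turned, 14 held). Leaving out 1 array gave 22 (without CIE 8 h mouse 69) to 62 (without Ctrl 0 h mouse 48) called, 7 to 25 higher, 15 to 37 lower, 11 to 43 faded, 1 to 2 shrank, 2 grew, 4 to 11 appeared, 0 to 2 turned, 1 to 5 at neither time and 6 to 12 held. Of the 22 genes, 13 were called in all 24 such fits, and Hmgb2, Nrarp, Aox1, Rbm33, Fos and Aass also in the other 8 settings. Of the rest, Sdf2l1 and Coq10b were called in 22 fits, Ciart and Manf in 18, Pdia4 in 14, Pik3ip1 in 10, Creld2 in 7, Patz1 in 6 and Abce1 in 4. No paired analysis was possible because the replicate numbers are mouse numbers that the groups do not share. The causes of these differences were not tested.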

Other observations

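Further gene groups, none with a called change, are given by their counts and medians. Over all genes 47.3% had a change above 0, and the median change was -0.01. Of 27 proteasome subunit genes 24 had a change above 0, with a median of 0.07, and of 16 NRF2 and antioxidant genes 15 did, with a median of 0.13. MHC class I presentation genes had a median effect of 0.45 at 0 h and 0.29 at 8 h, with 10 of 11 changes below 0 (H2-K1 1.06 and 0.78, H2-D1 0.99 and 0.74). Interferon-stimulated genes had 18 of 22 changes below 0 and a median of -0.11. Endothelial and mural markers had median changes of 0.13 and 0.12, while those of oligodendrocytes and their precursors had 0.01 each. Cytosolic ribosomal protein genes had a median of -0.02, and genes of cholesterol and fatty acid synthesis one of 0.01.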
